A study of Mus musculus with 6 samples.

Results

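The proteasome genes examined here were those whose symbol begins with Psma, Psmb, Psmc, Psmd, Psme, Psmf or Psmg followed by a number, leaving out the 3 inducible catalytic subunits Psmb8, Psmb9 and Psmb10. The symbols were taken from probe sets that the array's annotation assigns to a single gene. By this rule 68 of the 45141 probe sets were found, for 44 of the 17097 genes tested. Psmc3ip, a cofactor of meiotic recombination, and Psme3ip1, a protein that binds an activator of the proteasome, match the pattern by name only and were kept apart. The remaining 42 genes, with 66 probe sets, comprised 8 genes of the alpha ring, 8 of the beta ring, 8 of the base, 8 of the lid, 6 assembly chaperones and 4 activators and inhibitors. Psmc6, Psmd10, Psme2b and Psme4 were not analysed here.

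The study measured RNA of mouse fibroblasts that were derived from embryonic stem cells, either wild type (WT) or lacking CD98hc (CD98hc KO), the heavy chain that several amino acid transporters share and that the gene Slc3a2 encodes. Both groups were grown in high-glucose DMEM with serum, HEPES, non-essential amino acids, glutamine and β-mercaptoethanol. Amplified cDNA of 3 WT and 3 CD98hc KO samples, with replicate numbers 1, 3 and 5 under each label, was hybridised to Affymetrix Mouse Genome 430 PM arrays. The labels name no clone, passage or separate culture, so a p-value here measures only the spread between arrays.

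The label was checked against the targeted gene first. Slc3a2 had log2 values of 10.64, 10.67 and 10.51 with the WT label against 11.65, 11.57 and 11.54 with the KO label. It was higher under the KO label (log2 fold change 0.98, adjusted p = 0.000125 from limma), which goes against the label, and the sources do not place its single probe set relative to the deleted part. The groups are therefore called WT-labelled and KO-labelled throughout.

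The 6 arrays fell into 2 very different profiles. The correlation over all probe sets was 0.991 to 0.994 between arrays of the same label and 0.911 to 0.92 between labels. Of the fibroblast markers 13 of 13 were measured, and 7 were lower and 1 higher under the KO label, with a log2 summed level of 13.72 to 14.52 with the WT label against 10.38 to 10.82 with the KO label. Pdgfra, Thy1, Postn, Lum and Dcn were near background under both labels. Of the markers of pluripotent stem cells 10 of 11 were measured and all 10 were higher, with a summed level of 8.41 to 8.89 against 14.57 to 14.72. All 5 epithelial markers were higher (7.20 to 7.33 against 11.34 to 11.95), and of 3 measured leukocyte markers Cd3e was called higher (summed level 6.55 to 7.07 against 6.98 to 7.65). The part of these cell type differences in the values below was not tested, and in bulk RNA fewer cells of a type and less RNA per cell cannot be told apart.

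The proteasome is the main protease of the cytosol and nucleus, and it degrades proteins marked with ubiquitin chains. Its core particle is a barrel of stacked rings, in which outer rings of alpha subunits guard the entry and inner rings of beta subunits carry the proteolytic sites. A regulatory particle caps the barrel: its base holds the ATPases that unfold substrates and open the gate, and its lid holds the enzyme that removes ubiquitin. Dedicated chaperones assemble these parts, and alternative activators can replace the regulatory particle. In most tissues the subunit genes are broadly expressed and are tuned together by shared promoter elements and by the transcription factor NRF1.

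Promoter sequences of 34 of the 42 genes were found in a table made from RefSeq (build GRCm38.p6), as windows from 250 bases before to 50 bases after the start of transcription. The letters CCGGAAG, a site that transcription factors of the ETS family can recognise, were searched on both strands. They occurred in the windows of 12 of these 34 genes (35.3%) and of 12.9% of all 17492 protein-coding genes in the table. Here and below, the genes compared were not matched for base composition. On both strands again, CCAAT occurred in 35.3% of the proteasome genes and 42.3% of all genes, and the antioxidant response element core TGACNNNGC in 11.8% and 14.8%. The interferon response letters, GAAA followed by NN and GAAA again, occurred in 5 of the 34 genes (14.7%) and in 3.94% of all genes. The letters searched were chosen with the values known, and a match describes the sequence and not binding. The 100 bases before the start are shown for 5 genes picked by hand from those that differed below (Psmd11 only in its brighter probe sets). They are not the 5 clearest, as Psmd13 was left out. CCGGAAG or its reverse complement CTTCCGG is in capitals.
Psmg1: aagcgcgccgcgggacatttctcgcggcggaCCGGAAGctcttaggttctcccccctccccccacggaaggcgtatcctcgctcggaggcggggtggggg
Psmd11: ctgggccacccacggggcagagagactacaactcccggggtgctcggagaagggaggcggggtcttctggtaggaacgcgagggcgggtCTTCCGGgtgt
Psmd12: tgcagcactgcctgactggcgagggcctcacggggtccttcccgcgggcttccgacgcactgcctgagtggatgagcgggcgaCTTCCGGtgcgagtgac
Psmc4: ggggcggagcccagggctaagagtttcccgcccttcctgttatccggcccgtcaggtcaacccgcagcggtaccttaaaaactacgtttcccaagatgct
Psmc5: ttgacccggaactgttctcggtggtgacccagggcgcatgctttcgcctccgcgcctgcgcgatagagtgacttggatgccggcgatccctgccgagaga
The stretches lie at chr16:95990961-95991060 on the minus strand for Psmg1, chr11:80428515-80428614 on the plus strand for Psmd11, chr11:107479428-107479527 on the plus strand for Psmd12, chr7:28050093-28050192 on the minus strand for Psmc4 and chr11:106256085-106256184 on the plus strand for Psmc5. Psmg1, higher under the KO label, and Psmd12, lower, both hold the letters, while Psmc4, higher, and Psmc5, lower, hold none in the stretch shown. Among called genes not shown, the window of Psmd13, higher, held the letters, and those of Psma1, higher, and Psmb11, lower, did not. For Psme2, lower, no match was found, either because its window holds none or because it had no window. The balance among the genes shown comes from their choice. Whether the letters go with a direction of change was not tested.

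Between the labels the proteasome genes differed little. Of the 42 genes, 4 were higher under the KO label (Psmg1, Psmc4, Psmd13 and Psma1) and 4 were lower (Psme2, Psmd12, Psmc5 and Psmb11) at an adjusted p under 0.05 in limma. These 8 genes are 19% of the 42, while 41.9% of all genes tested were called, 22.6% higher and 19.2% lower. With each array centred on its median the split was 3 higher and 7 lower, and that of all genes 19.3% higher and 22.3% lower. None of the 42 genes changed over 2-fold, against 19.4% of all genes tested (9.27% higher and 10.1% lower). The arrays of the 2 labels did not overlap for 18 of the 42 genes (42.9%), against 51.5% of all genes. The largest change of any proteasome gene, that of Psmg1, was 1.79-fold, and 23.8% of all genes tested had a larger one.

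The median log2 fold change over the 42 genes was 0.05, beside 0.02 over all genes. The median of its absolute size was 0.14, beside 0.29 over all genes. In 27 of the 42 genes (64.3%) the log2 fold change was under 0.25 in size, against 47.1% of all genes tested. A failed test does not show equal levels, so the 95% intervals were read as well. The interval lay within 2-fold either way for 39 of the 42 genes (92.9%, all genes 68.3%) and within 1.5-fold for 30 (71.4%, all genes 47.6%).

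**Figure D1:**
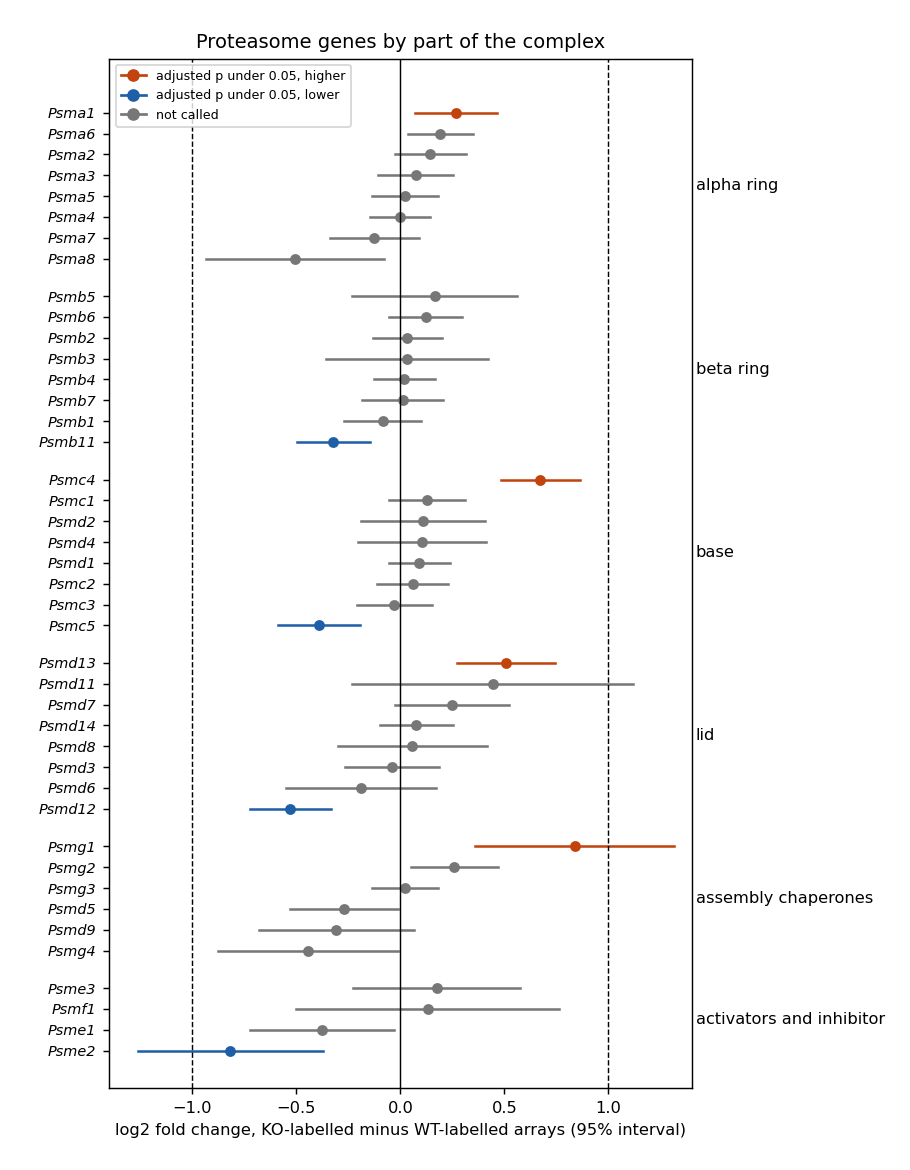
Log2 fold change of the 42 proteasome genes (x axis, KO-labelled minus WT-labelled arrays, 3 arrays each) with its 95% interval from limma, grouped by part of the complex. Orange points were called higher and blue points lower at an adjusted p under 0.05, grey points were not called, and dashed lines mark 2-fold; no point lies beyond them and the beta ring is the most tightly grouped around 0 apart from Psmb11.

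Many proteasome probe sets are bright, and the spread of log2 fold changes narrows among the brightest genes of the array, so the comparison was repeated at similar brightness with limits chosen after the values were seen. Of the 42 genes, 33 had a mean over 9 on the log2 scale, of which 4 were called higher and 2 lower (18.2%). Of the 2883 genes of that brightness 28% were called higher and 23% lower, and 14.9% changed over 2-fold. Over a mean of 11 there were 22 proteasome genes, of which 3 (13.6%) were called, against 32.2% of 490 genes. Their median absolute log2 fold change was 0.10, against 0.19, and 0 of them but 2.45% of these 490 genes changed over 2-fold. Ranked instead by the brighter of the labels, 49.7% of 721 genes over 11 were called and 18.7% changed over 2-fold. Of 22 proteasome genes 3 were called and 0 changed over 2-fold. This ranking keeps genes that are bright under only 1 label, which by itself raises the shares among all genes. It therefore adds nothing to the comparison by the mean over all arrays. Over a mean of 12, where 7 proteasome genes lay, 0 were called in limma (0 at an unadjusted p under 0.05 as well), against 15.6% of 122 genes.

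**Figure D2:**
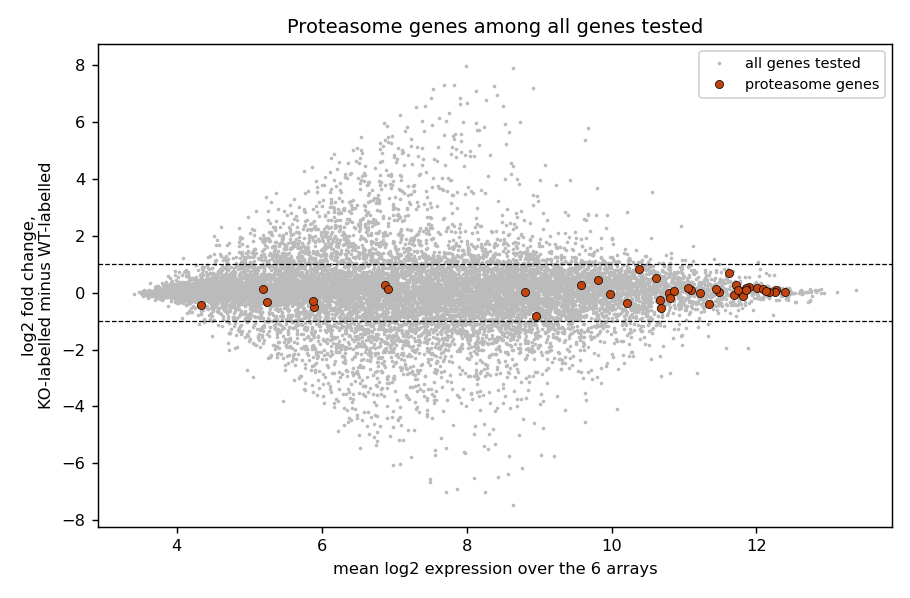
Log2 fold change (y axis, KO-labelled minus WT-labelled) against the mean log2 value over the 6 arrays (x axis) for all 17097 genes tested (grey) and the 42 proteasome genes (orange), with dashed lines at 2-fold. The proteasome genes lie mostly at the bright end and between the dashed lines, where the grey points also narrow.

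In the alpha ring, whose subunits form the gate of the core particle, Psma1 alone was called. It had log2 values of 11.64, 11.65 and 11.47 with the WT label against 11.79, 11.94 and 11.82 with the KO label. The labels did not overlap, but the gap between them was small. The log2 fold change was 0.27 (SE 0.082, adjusted p = 0.0405 from limma), and the call was lost when any 1 of the 6 arrays was left out (adjusted p over all alternatives 0.0243 to 0.114). Psma6 (0.19), Psma2 (0.14), Psma3 (0.07), Psma5 (0.02), Psma4 (-0.00) and Psma7 (-0.13) had smaller log2 fold changes and were not called. Psma8, the testis form of an alpha subunit, was dim, with 5.97, 6.44 and 6.05 with the WT label against 5.61, 5.93 and 5.40 with the KO label. The labels were separated by a narrow gap, and it was not called (log2 fold change -0.51, SE 0.18, adjusted p = 0.0617 from limma). The 7 alpha genes other than Psma8 had a median log2 fold change of 0.07.

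The beta ring was the part with the smallest differences. Its 7 widely expressed members, Psmb1 to Psmb7, had log2 fold changes from -0.09 to 0.16 with a median of 0.03. In limma 0 of the 7 were called, and 0 had an unadjusted p under 0.05. They were also bright, with a median level of 12.09, where differences narrow for all genes. Their median absolute log2 fold change was 0.03, against 0.10 for all 122 genes with a mean over 12. Of those 122 genes 15.6% were called. Whether the ring differs from genes of like brightness was not tested. Psmb5, the chymotrypsin-like site and the highest of them, had values of 12.01, 11.62 and 12.15 with the WT label against 12.21, 11.87 and 12.20 with the KO label (log2 fold change 0.16). The arrays of the labels overlapped, and the lowest value under each label was that of replicate 3. The caspase-like site Psmb6 (0.12) and the trypsin-like site Psmb7 (0.01) were not called either. Psmb1, the lowest of the 7, had 11.72, 11.63 and 11.83 against 11.68, 11.60 and 11.65 (-0.09), and Psmb2, Psmb3 and Psmb4 lay between 0.02 and 0.03. Psmb11, the thymus form of the chymotrypsin-like subunit, had the only call in this ring. Its values of 5.45, 5.42 and 5.33 with the WT label against 5.07, 5.16 and 5.01 with the KO label were all close to the signal of the nonspecific probe sets (median 4.23, range 3.28 to 8.32). The groups did not overlap, and the log2 fold change was -0.32 (SE 0.073, adjusted p = 0.0123 from limma).

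The base held calls in opposite directions in subunits of the same ATPase ring. Psmc4 had log2 values of 11.36, 11.16 and 11.34 with the WT label against 11.97, 11.91 and 12.00 with the KO label, a rise of 1.59-fold (log2 fold change 0.67, SE 0.079, adjusted p = 0.000769 from limma). Every KO-labelled array was higher than every WT-labelled one. A second, brighter probe set of Psmc4 rose as well, by a log2 fold change of 0.34 (adjusted p = 0.0389 over all probe sets), so the size of the change depended on the probe set. Psmc5, another of the ATPases, fell. It had 11.61, 11.45 and 11.58 against 11.08, 11.13 and 11.26, with no overlap (log2 fold change -0.39, SE 0.082, adjusted p = 0.00921). Both calls held under all 15 alternatives. The ATPases Psmc1 (0.13), Psmc2 (0.06) and Psmc3 (-0.03), the scaffold subunits Psmd1 (0.09) and Psmd2 (0.11) and the ubiquitin receptor Psmd4 (0.11) were not called. The value of Psmd2 came from a dim probe set, and its brightest one had a log2 fold change of 0.01. Over the 8 base genes the median log2 fold change was 0.10.

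The lid showed the same division. Psmd13 had values of 10.37, 10.27 and 10.42 with the WT label against 10.92, 10.69 and 10.98 with the KO label (log2 fold change 0.51, SE 0.098, adjusted p = 0.00645 from limma). Psmd12 had 11.08, 10.88 and 10.89 against 10.46, 10.43 and 10.37 (log2 fold change -0.53, SE 0.081, adjusted p = 0.00246). Both are structural subunits, neither overlapped between the labels, and both calls held under all 15 alternatives. Psmd14, the deubiquitinating enzyme of the lid, had a log2 fold change of 0.08 and was not called. Psmd3 (-0.04), Psmd8 (0.06) and Psmd6 (-0.19) were not called, and the second probe set of Psmd6 had the opposite sign (0.18). The median over the 8 lid genes was 0.07, with a median absolute size of 0.22.

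**Figure D3:**
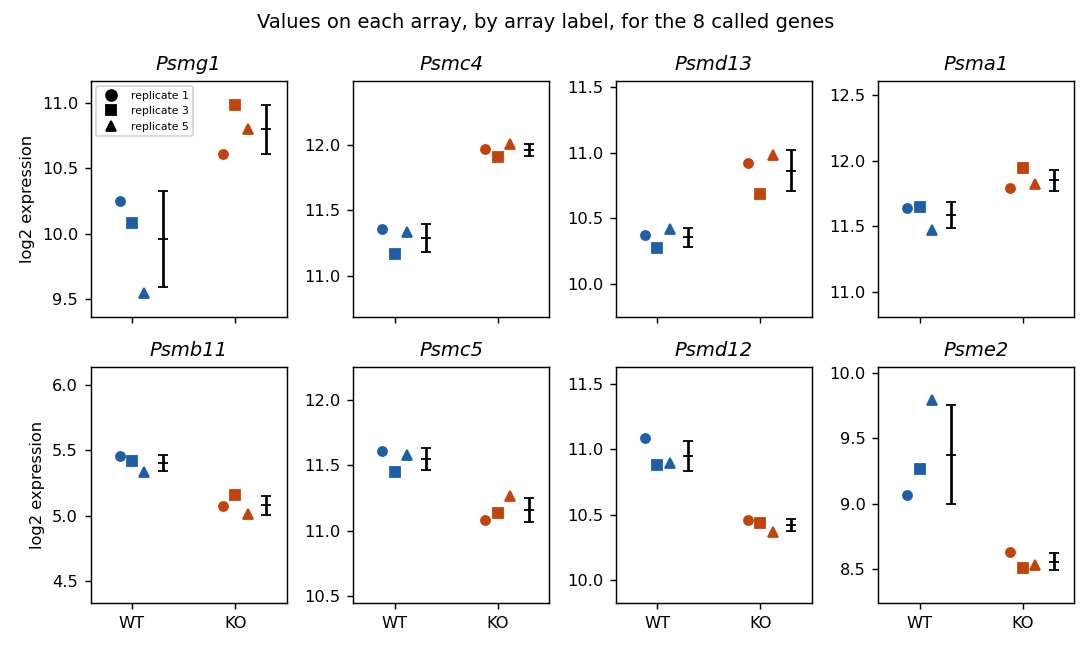
Log2 expression (y axis, each panel spanning the same range) on the WT-labelled and KO-labelled arrays for the 8 called genes, with circles, squares and triangles for replicates 1, 3 and 5 and bars for the mean and SD of 3 arrays. In every panel the labels do not overlap; Psmg1 and Psme2 have the widest spread on the WT-labelled arrays, and Psmb11 is the dimmest.

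For Psmd11 and Psmd7 the result depended on the probe set. The representative probe set of Psmd11, a lid subunit, was its most variable one, with 9.60, 10.09 and 9.09 against 9.84, 10.42 and 9.84, and it was not called (log2 fold change 0.44, adjusted p = 0.272 from limma). The arrays overlapped widely there, with replicate 3 highest under both labels. Its brightest probe set, at 11.43, 11.27 and 11.35 against 11.79, 11.71 and 11.70, did not overlap and was called (log2 fold change 0.39, adjusted p = 0.00574 with the brightest probe set of each gene). Another probe set of Psmd11 was also called higher (0.44). Psmd7 had a dim representative with a log2 fold change of 0.25 (adjusted p = 0.133), while its brightest probe set rose from 11.59, 11.40 and 11.46 to 11.75, 11.71 and 11.86 (0.29, adjusted p = 0.0288). Taken by the brightest probe set, 3 of the 8 lid genes were thus higher (Psmd11, Psmd13 and Psmd7) and 1 lower (Psmd12). Of all genes taken in the same way, 21.3% were higher and 18.2% lower. The difference between the lid and all genes was not tested.

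Among the assembly chaperones, Psmg1 had the largest change of any proteasome gene. Its values were 10.25, 10.08 and 9.54 with the WT label against 10.60, 10.98 and 10.80 with the KO label (log2 fold change 0.84, SE 0.2, adjusted p = 0.0149 from limma). The labels did not overlap, and WT replicate 5 lay well below the other WT-labelled arrays. With the arrays of replicates 1 and 5 alone the log2 fold change was 0.81 and the call was lost (adjusted p = 0.0903). Psmg2, which pairs with Psmg1 to build the alpha ring, had a log2 fold change of 0.26 (adjusted p = 0.0538). A second, dimmer probe set of Psmg2 had 0.003 (adjusted p = 0.991 from limma over all probe sets). Psmg3 had 0.02. The representative probe set of Psmg4, its partner, was dim, with 4.65, 4.28 and 4.73 against 4.14, 3.81 and 4.38 (-0.44, adjusted p = 0.0974), and these values overlapped. Its brightest probe set, at 9.95, 9.65 and 9.93 against 9.55, 9.25 and 9.73, overlapped too and was not called (-0.33, adjusted p = 0.126). The base chaperones Psmd5 (-0.27, adjusted p = 0.0925) and Psmd9 (-0.31, adjusted p = 0.17) were not called. The value of Psmd9 came from a dim probe set. The brightest probe set of Psmd9 was called lower, at -0.38 (adjusted p = 0.0334).

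Of the activators and the inhibitor, Psme2 alone was called. Psme1 and Psme2 encode the subunits of the interferon-inducible PA28 cap, which favours peptide release from the core. Psme2 had values of 9.07, 9.26 and 9.79 with the WT label against 8.63, 8.50 and 8.53 with the KO label (log2 fold change -0.82, SE 0.18, adjusted p = 0.0123 from limma). This fall of 1.76-fold was the largest decrease of any proteasome gene, and the KO-labelled arrays lay close together while the WT-labelled ones were spread out. With replicates 1 and 5 alone it was -0.85 and no longer called (adjusted p = 0.0796). Psme1 had 10.25, 10.25 and 10.69 against 10.00, 9.90 and 10.16. Its values did not overlap between the labels, but it was not called (log2 fold change -0.38, adjusted p = 0.0794).

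Psme3 encodes the nuclear activator, which forms a ring by itself. Its representative probe set had 11.28, 10.66 and 10.99 against 11.23, 10.98 and 11.24 and was not called (log2 fold change 0.18, adjusted p = 0.477 from limma), with overlapping arrays. Its brightest probe set had 11.34, 11.12 and 11.10 against 11.61, 11.50 and 11.49. There the labels did not overlap, and it was called higher (0.35, adjusted p = 0.0218). Psmf1, an inhibitor of the core particle in vitro, had 7.12, 6.28 and 7.14 against 7.02, 6.69 and 7.22 (0.13, adjusted p = 0.753). Its brightest probe set, at 0.26, was not called either (adjusted p = 0.105). Of its 4 probe sets 1, a dim one, was called higher (0.31, adjusted p = 0.0145 from limma over all probe sets).

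**Figure D4:**
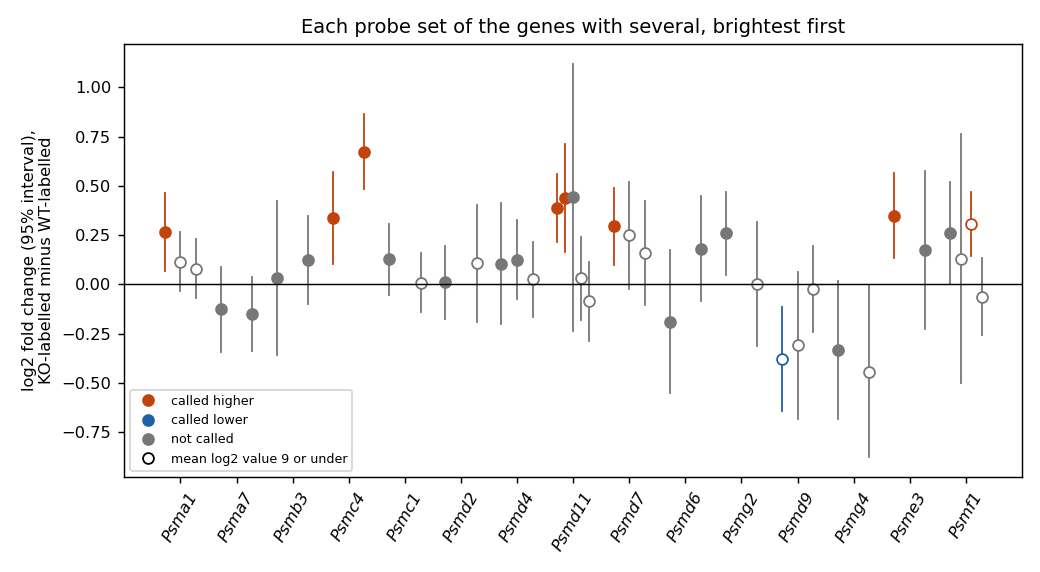
Log2 fold change (y axis, KO-labelled minus WT-labelled) with its 95% interval for each probe set of the 15 proteasome genes that have more than 1, brightest first within a gene. Orange was called higher and blue lower over all probe sets, and open points have a mean log2 value of 9 or under; no gene has probe sets called in opposite directions, and Psma1, Psmd11, Psmd7, Psmd9 and Psme3 have a brightest probe set that was called beside others that were not.

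Of the 15 genes with several probe sets, 0 had probe sets called in opposite directions. In 6 genes (Psma1, Psmd11, Psmd7, Psmd9, Psme3 and Psmf1) some probe sets were called and others not, in Psmc4 all were, and in the other 8 genes none was. With the brightest probe set of each gene, 7 proteasome genes were higher and 5 lower of 42, against 21.3% and 18.2% of all genes. None of them changed over 2-fold, against 17.1% of all genes. Over all 66 probe sets, 10 were called higher and 5 lower, against 16.8% and 16% of all probe sets. The genes added by the brightest probe set were Psmd11, Psmd7 and Psme3 (higher) and Psmd9 (lower).

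The arrays of replicate 3 stood apart under both labels. All 18 probe sets of the hybridisation controls were lower on replicate 3 under both labels, by 1.21 on average (log2). All 7 genes Psmb1 to Psmb7 had their lowest value on replicate 3 under both labels, by up to 0.40 for Psmb3 and Psmb5. Psma1, Psma2, Psma3, Psma6, Psma7 and Psma8 had their highest value there, while Psma4, Psma5 and Psmb11 had neither. The difference between the rings was not tested. In all, 17 of the 42 genes (40.5%) were lowest on replicate 3 under both labels, against 20.2% of all genes and 32.2% of those with a mean over 9, and 10 (23.8%) were highest there, against 25.6% of all genes. The difference between replicate 3 and the other arrays exceeded that between the labels in 20 of the 42 genes (47.6%), against 32.5% of all genes. What differs about the replicate 3 arrays was not tested. With them as a batch covariate, 6 genes were higher and 7 lower of 42, against 25.8% and 21.5% of all genes. With replicates 1 and 5 alone 2 were higher and 5 lower, against 18.8% and 16.8%.

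Genes that work with the proteasome were taken from a list of 27, of which 17 were measured, and 3 were higher and 3 lower. That is 17.6% each way, against 22.6% higher and 19.2% lower of all genes tested. Of the 5 other subunits and bound factors measured, only Ecpas, an adaptor that links the proteasome to other compartments, was called (log2 fold change -0.83, SE 0.1, adjusted p = 0.00091 from limma). Of the 3 inducible catalytic subunits, Psmb9 rose from 6.52, 6.53 and 6.50 to 7.04, 7.02 and 7.05 (0.52, adjusted p = 0.000637), while Psmb8 (0.08) and Psmb10 (-0.20) were not called. Psmb9 was higher and its interferon-inducible companion Psme2 was lower under the same label. Nfe2l1, which encodes NRF1, had 8.70, 8.38 and 8.66 against 8.25, 8.03 and 8.29 (-0.39, adjusted p = 0.0371). Among 6 genes of ubiquitin shuttles and the p97 unfoldase, Ubqln4 rose (1.01, adjusted p = 0.00298), as did Rad23b (0.81, adjusted p = 0.000441), and the p97 cofactor Nploc4 fell (-0.38, adjusted p = 0.0164). Ubqln4, at 7.12, 6.67 and 6.91 against 8.14, 7.65 and 7.94, was the only one of the 17 to change over 2-fold. Of all genes tested 19.4% did. The 1 gene measured for ubiquitin and its activating enzymes was not called.

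Of the genes that match by name only, Psme3ip1 had 8.46, 8.58 and 8.42 with the WT label against 9.43, 9.42 and 9.54 with the KO label (log2 fold change 0.98, SE 0.075, adjusted p = 0.000132 from limma). This was larger than the change of any proteasome gene proper, with no overlap. Psmc3ip, at 9.19, 9.10 and 9.58 against 10.06, 9.36 and 9.74, overlapped and was not called (0.43, adjusted p = 0.156).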

How the data were processed

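Values on the log2 scale were used as the authors deposited them, 1 value per probe set and array. The submitters' processing notes name RMA with no version. By the paper, affyPLM was used for background correction and probe summaries, and scan batch entered the model as a covariate. No source used here gives that batch for each array. The labels name Trizol and RNeasy for the RNA extraction and the paper names another kit. Array medians lay between 5.62 and 5.71. No detection calls or probe intensities were used, so the number of arrays limits the precision.

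Among the 28898 probe sets with 1 symbol, the one that varied most across arrays stood for each of 17097 genes. A further 2 probe sets shared between Psmd13 and Sirt3 were not used, and 6 probe sets belonged to the 3 inducible genes left out. KO-labelled and WT-labelled arrays were compared in limma 3.58.1 under R 4.3.3 (lmFit, eBayes) without a covariate, with Benjamini-Hochberg adjustment over all genes and a call at an adjusted p under 0.05. With 3 arrays a group, the smallest p of an exact permutation test is 0.1. The calculation was tested on simulated data. Of 100 genes given a log2 change of 0.5 it called 39 in the right direction, and of 100 given 1.5 it called 85. Of 16897 genes given no change it called 12. Changes of the size seen in most proteasome genes could thus be missed. Far fewer genes changed in the simulation than were called in the data, so these shares do not carry over directly. The proteasome genes, the other gene lists and the rules were chosen with earlier results of these data known. Values on each array are given for the highest and lowest gene of each part of the complex, for the activators and inhibitor and for genes whose probe sets disagreed. The values on each array of Psma1 and of genes on the related list were chosen by call. Promoters came from a RefSeq table. Alternatives covered covariates, arrays left out, the choice of probe set, normalisation, a filter on dim probe sets and the variance model. Python 3.11.15 and matplotlib 3.10.9 were used for the figures.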

Additional observations from a re-analysis of the deposited data

How the results depend on the processing

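No proteasome gene reversed direction with a call, and the number changed over 2-fold was 0, under every alternative. With 1 array left out the count of higher genes among the 42 was 3 to 4, that of lower genes 4 to 5 and that over 2-fold 0 to 0. Of all genes tested, 19.2% to 21.6% were higher and 16.6% to 18.3% lower in these fits. Over the same fits the median log2 fold change ranged from 0.01 to 0.05 for the core particle, 0.0328 to 0.121 for the base, 0.0262 to 0.171 for the lid, -0.30 to -0.02 for the activators and inhibitor and -0.189 to -0.0946 for the assembly chaperones. The 4 lower calls (Psme2, Psmd12, Psmc5 and Psmb11) held in each of these fits, and of the higher calls only that of Psma1 was lost.

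The 2 arrays sharing a replicate number were little alike for replicates 1 and 5 (correlations of deviations 0.06 and 0.15). For replicate 3 they were more alike (0.56). In all, 3 of 6 arrays were closest to their own number. With the replicate block 6 genes were higher and 9 lower of 42, against 25% and 21.1% of all genes. With the replicate 3 arrays as a covariate 7 were lower. With replicates 1 and 5 alone 2 were higher, and the lid median was 0.13. The brightest probe set gave 7 higher. Over all probe sets 10 were higher, and the medians were 0.16 for the lid and 0.15 for the activators and inhibitor. With arrays centred on their median, which moved the median of all genes from 0.02 to -0.07, 7 were lower and the medians were -0.05 for the core, 0.0206 for the base, -0.0106 for the lid and -0.21 for the chaperones. The causes of these shifts were not tested. The probe sets of Psmb11 and Psma8 and the representative ones of Psmg4, Psmd2 and Psmd9 lay near the signal of nonspecific probe sets. Small changes there cannot be told apart from background.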
